A study of Homo sapiens with 6 samples.

Results

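The endothelin system of YAPC cells was followed through 6 genes, the ligand genes EDN1, EDN2 and EDN3, the converting enzyme gene ECE1 and the receptor genes EDNRA and EDNRB. These 6 were chosen by gene symbol from the 27024 entries of the expression table. Where several rows carried a symbol, the row with the highest mean was to be kept, but each gene had a single row, so no measured value decided which row was used. The set was put forward with results of this comparison already known, so the values of the 6 genes are a description of them.

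Endothelins are short vasoactive peptides. Each is made as a prepropeptide, trimmed by furin-type convertases to an inactive big endothelin and cut by endothelin converting enzyme to the active peptide. The receptors are G protein-coupled: the receptor encoded by EDNRA prefers the products of EDN1 and EDN2, and the receptor encoded by EDNRB binds the products of all the ligand genes. The system is best known for contraction of blood vessels by endothelial EDN1 and for migration of neural crest cells through EDN3 and EDNRB, and its parts are also made by several epithelial tumors.

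The libraries came from YAPC, a human pancreatic ductal adenocarcinoma (PDA) line used as a model of the classical subtype. In 3 libraries the cells carried human GLI2, the Hedgehog pathway transcription factor, in the doxycycline-inducible vector pRetroX-Tight-Puro (iGLI2), and in the other 3 they carried the same vector without an insert (iEV). Both groups had been kept in doxycycline (Dox) for 6 days, so the groups share the drug and were made to differ by the insert. They are separately engineered derivatives of the line, so the insert cannot be told apart from other differences between them. Nothing in the labels says that the replicates were separate cultures, so the p-values measure the spread between these libraries, and the design rests on a single line.

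Expression was read as FPKM, in which fragments are divided by the length of the transcript and by the size of the library, which allows levels of different genes to be set side by side. The iEV libraries summed to 981344 to 1082687 FPKM and the iGLI2 libraries to 803149 to 889559 FPKM, of which the short RNA gene MIR4461 took 42.6% to 45.4% and 35.7% to 37.7%. GLI2 itself, where endogenous and introduced copies are counted together, was at 0.466, 0.412 and 0.344 FPKM in the iEV libraries and at 94.5, 207 and 195 FPKM in the iGLI2 libraries, so the libraries matched their labels, with replicate 1 lowest in the iGLI2 group. Genes averaging at least 1 FPKM were tested with limma on log2(FPKM + 1), a scale that understates the change of low genes, and called at an adjusted p under 0.05. Of 12493 genes tested, 21.9% were called in either direction, 1262 higher and 1480 lower in iGLI2. The balance of directions moved with the scaling, since 1789 genes were higher and 1223 lower once small RNA genes were left out and the libraries rescaled. Of 7 listed markers of ductal epithelium, EPCAM and CDH1 were higher in iGLI2, MUC1 was lower, from 21.7 to 3.61 FPKM, and KRT7 and KRT19 were not called. EPCAM and KRT19 averaged 405 and 621 FPKM in iEV and 523 and 548 FPKM in iGLI2. The keratin genes KRT8 and KRT18, the other markers, were listed at 0 in all 6 libraries, so a 0 in this table was not read as absence of the transcript.

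EDN2 rose and was the only one of the 6 genes called. Of the 3 genes that could be tested, EDN2 was called higher, none was called lower, and EDN1 and ECE1 were not called. Across all genes tested, 10.1% were called higher. EDN2 averaged under 1 FPKM in iEV and reached the minimum level only through the iGLI2 libraries, so a gene of its level could enter the test only by differing, and the count of calls and its place among the genes tested describe it and carry no further weight. The receptor genes and EDN3 were listed under the minimum level, EDNRB and EDN3 at or near 0. EDNRA had low values that were higher in each iGLI2 library than in any iEV library. Groups without overlap made up 42% of the genes tested, a set that does not hold EDNRA.

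**Figure D1:**
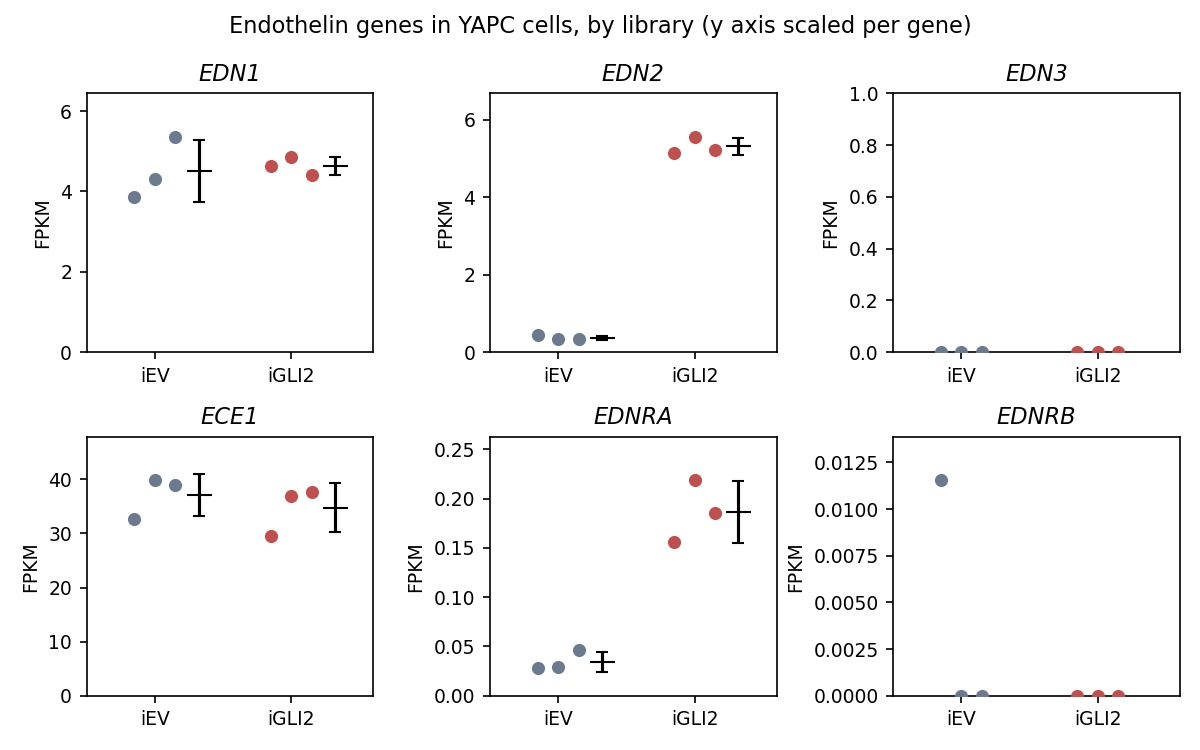
FPKM of the 6 endothelin genes in each library, with a y axis of its own for each gene. Points are libraries in replicate order, and the bar beside each group is the mean ± SD (n = 3), left out where a library was listed at 0. EDN2 and EDNRA separate the groups, while EDN1 and ECE1 overlap. Groups separated in 42% of the genes tested, a set without EDNRA.

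EDN1 encodes endothelin-1, the main vasoconstrictor of the family. The gene (ENSG00000078401) lies on the plus strand of chr6:12290529-12297427 in hg19, with 5 exons in its representative transcript of 2035 bases. Its level was 3.86, 4.31 and 5.37 FPKM in iEV and 4.62, 4.85 and 4.41 FPKM in iGLI2. All 3 iGLI2 values lay inside the range of the iEV values. The means were 4.51 ± 0.775 FPKM in iEV and 4.63 ± 0.220 FPKM in iGLI2 (SD, n = 3). The log2 fold change was 0.04 (SE 0.11, 95% interval −0.23 to 0.31, limma adjusted p = 0.833), so a change beyond that interval was not seen, and a smaller one could not be resolved.

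EDN2 encodes endothelin-2, a peptide that differs little from endothelin-1 and acts on the same receptors. The gene (ENSG00000127129) lies on the minus strand of chr1:41944446-41950354 in hg19, with 5 exons and a representative transcript of 1253 bases. Its level was 0.439, 0.340 and 0.331 FPKM in the iEV libraries and 5.15, 5.57 and 5.23 FPKM in the iGLI2 libraries. The lowest iGLI2 value was 11.7 times the highest iEV value, and the iGLI2 libraries differed among themselves by a factor of only 1.08. Groups without overlap were common in these data, in 42% of the genes tested.

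The mean of EDN2 went from 0.370 ± 0.0602 to 5.32 ± 0.220 FPKM (SD, n = 3), a ratio of 14.4. On log2(FPKM + 1) the fold change was 2.21 (SE 0.079, 95% interval 2.01 to 2.40, limma adjusted p = 0.000132), and without the minimum level it was the same, with a limma adjusted p of 0.000276. By that scale 101 genes, or 0.808% of those tested, rose by more, and by the ratio of means EDN2 held place 36. EDN2 moved from above 45.9% of all genes in iEV to above 65.4% in iGLI2. Within iGLI2, GLI2 was lowest in replicate 1, at 94.5 FPKM against 195 and 207 FPKM, a spread that EDN2 did not have. EDN2 was likewise lowest in replicate 1 and highest in replicate 2, at 5.15 and 5.57 FPKM. A relation between the levels of GLI2 and EDN2 was not tested.

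**Figure D2:**
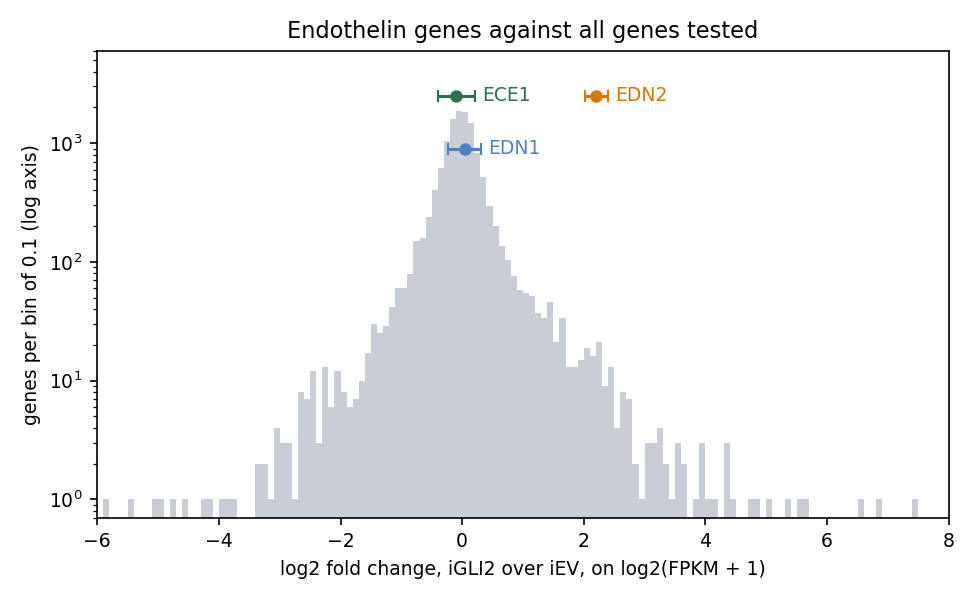
Log2 fold changes of iGLI2 over iEV on log2(FPKM + 1), as a histogram of the 12493 genes tested with a log y axis, and as points with 95% intervals for the 3 endothelin genes tested (their height has no meaning). EDN2 lies in the upper tail at 2.21, and EDN1 and ECE1 lie near 0.

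The sequences upstream of EDN1 and EDN2 are shown because EDN2 was called and EDN1 was not. Whether their changes differed was not tested. They are the 250 bases before a RefSeq start, the only one listed for EDN2 and, of 3 listed for EDN1, the one farthest downstream, written 5′ to 3′ in the direction of the gene, taken from a table on GRCh38.p14 and found again at a single place each in GRCh37, whose coordinates are given. Capitals mark TATAA on the gene's strand, the letters GATAA and ACGTG on either strand (the cores of GATA sites and of hypoxia response elements) and CCACCC on either strand, the core of the GLI consensus.
EDN2, chr1:41950355-41950604, minus strand: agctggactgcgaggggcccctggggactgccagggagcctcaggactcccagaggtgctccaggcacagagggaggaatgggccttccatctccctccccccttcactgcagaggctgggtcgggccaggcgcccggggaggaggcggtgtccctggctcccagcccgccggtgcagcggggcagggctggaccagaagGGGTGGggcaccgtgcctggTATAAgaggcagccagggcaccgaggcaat
EDN1, chr6:12290344-12290593, plus strand: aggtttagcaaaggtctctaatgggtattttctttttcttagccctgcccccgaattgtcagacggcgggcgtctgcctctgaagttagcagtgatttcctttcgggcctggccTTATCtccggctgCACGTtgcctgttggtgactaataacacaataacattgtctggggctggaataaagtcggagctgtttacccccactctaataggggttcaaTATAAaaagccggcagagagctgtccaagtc

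The stretches before the other EDN1 starts (chr6:12288002-12288251 and chr6:12289997-12290246) hold neither TATAA nor GATAA. The first of these holds ACGTG at 2 places, on the opposite strand, and the second holds none. Both printed stretches hold TATAA close to the start. Of 35116 RefSeq promoters, 13.6% hold TATAA anywhere in the 250 bases, and the share close to the start was not computed. The EDN2 stretch has CCACCC on the opposite strand (31.3% of promoters) and is richer in G and C, at 70.8% against 49.2% for EDN1 and a median of 58% over all promoters. CCACCC also occurs in stretches listed for ECE1, which was not called (chr1:21671998-21672247 and chr1:21616709-21616958). The EDN1 stretch has GATAA (20.4% of promoters) and ACGTG (18.5%), each on the opposite strand. Neither stretch holds the full GLI consensus GACCACCCA, found in 0.199% of promoters, nor the AP-1 site TGANTCA, found in 6.57%. In all, 11 promoters of 5 of the 6 genes were in the table, and none held GACCACCCA or TGANTCA.

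Within 5000 bases on each side of the annotated start, in GRCh37, GACCACCCA on either strand occurred at 1 place for EDN2 and at none for the other 5 genes. Among 20163 such windows around protein-coding genes, 7.44% held a match. The EDN2 match lies at chr1:41954274-41954282, 3920 bases upstream of the start, where no annotated gene overlaps it. It is printed in the direction of EDN2, on the minus strand of chr1:41954258-41954298, with the consensus in capitals. A match of letters is a description of the sequence, and no binding was measured in these libraries.
EDN2 upstream match: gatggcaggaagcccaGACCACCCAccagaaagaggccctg

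EDN3 encodes endothelin-3, the ligand that acts through EDNRB in melanocyte and enteric neuron precursors. The gene (ENSG00000124205, plus strand of chr20:57875482-57901047 in hg19) was listed at 0 FPKM in all 6 libraries. Of 5 listed melanocyte markers, PMEL alone reached 1 FPKM on average and was not called, and TYR and SOX10 were listed at 0 in every library. Their sum was 1.43 to 1.85 FPKM in iEV and 1.16 to 1.90 FPKM in iGLI2.

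The makeup of the ligand transcripts followed from these values. The sum of the ligand genes was 4.30, 4.65 and 5.70 FPKM in iEV and 9.78, 10.4 and 9.64 FPKM in iGLI2. EDN2 made up 10.2%, 7.31% and 5.80% of that sum in iEV and 52.7%, 53.5% and 54.3% in iGLI2. Thus EDN1 was the larger of the pair in each iEV library and EDN2 the slightly larger in each iGLI2 library, where the ratio of EDN2 to EDN1 was between 1.11 and 1.19. The mean share was 7.78% ± 2.25 in iEV and 53.5% ± 0.781 in iGLI2 (SD, n = 3), with the sum at 4.88 ± 0.729 and 9.95 ± 0.414 FPKM. The sum and the shares take the listed 0 of EDN3 at face value and otherwise hold for EDN1 and EDN2 alone, and peptide was not measured in these libraries.

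**Figure D3:**
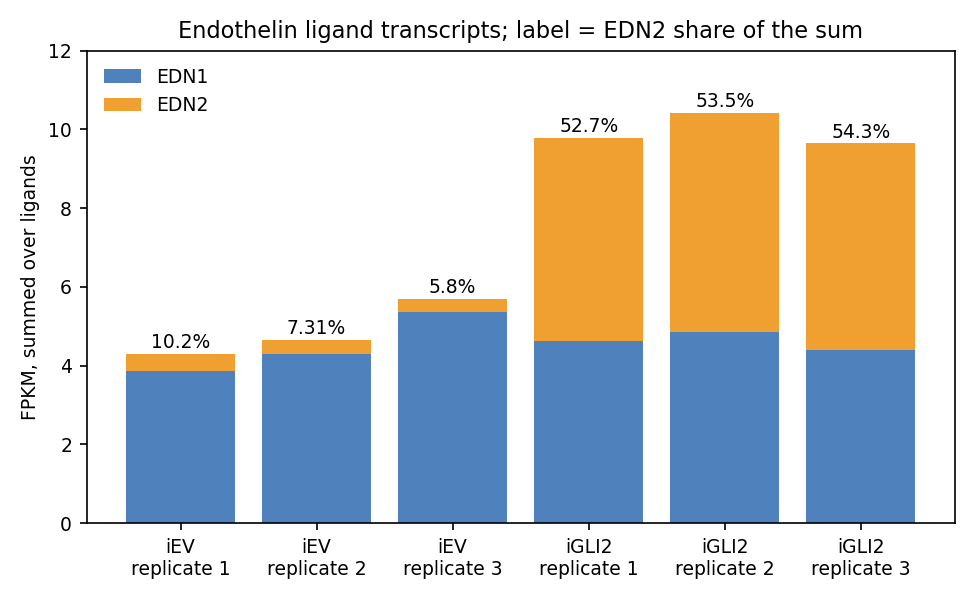
Stacked FPKM of EDN1 and EDN2 in each of the 6 libraries, with the percent of the sum that is EDN2 printed above each bar (EDN3 was listed at 0 throughout). The EDN1 part stays between 3.86 and 5.37 FPKM, and the EDN2 part is 0.439 FPKM or less in iEV and 5.15 FPKM or more in iGLI2.

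ECE1 encodes the membrane metalloprotease that cuts big endothelins to their active form, and it was the most abundant of the 6 transcripts. The gene (ENSG00000117298, minus strand of chr1:21543740-21672034 in hg19, with 19 exons and a representative transcript of 5067 bases) was at 32.7, 39.9 and 38.9 FPKM in iEV and at 29.6, 37.0 and 37.8 FPKM in iGLI2. Replicate 1 was lowest in both groups, and the groups overlapped. The means were 37.1 ± 3.91 and 34.8 ± 4.53 FPKM (SD, n = 3), and the log2 fold change was −0.09 (SE 0.12, 95% interval −0.40 to 0.21, limma adjusted p = 0.630). A second entry, LOC100506801, is listed at the same locus, at 0.144 to 0.236 FPKM, so that interval need not be the span of ECE1 alone. The ratio of ECE1 to the ligand sum was 6.83 to 8.58 in iEV and 3.02 to 3.91 in iGLI2.

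EDNRA encodes the endothelin receptor known from smooth muscle and fibroblasts. The gene (ENSG00000151617, plus strand of chr4:148402069-148466106 in hg19, 8 exons, representative transcript of 3970 bases) was at 0.0277, 0.0288 and 0.0459 FPKM in iEV and at 0.156, 0.219 and 0.186 FPKM in iGLI2. The lowest iGLI2 value was 3.39 times the highest iEV value, but every value was under 1 FPKM, and the number of fragments behind them is unknown. Groups did not overlap in 42% of the genes tested, and the share among genes as low as EDNRA was not computed. The means were 0.0341 ± 0.0102 and 0.187 ± 0.0315 FPKM (SD, n = 3), a ratio of 5.47. EDNRA was therefore outside the main test. Without the minimum level, its log2 fold change was 0.20 (SE 0.024, 95% interval 0.14 to 0.26, limma adjusted p = 0.00552), in a fit that called 15.1% of 20035 genes.

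Of 9 listed markers of smooth muscle and fibroblasts, COL1A1, a fibrillar collagen gene, was the only one that reached 1 FPKM on average, at 1.41 ± 0.127 FPKM in iEV and 2.69 ± 0.365 FPKM in iGLI2. DCN was listed at 0 in every library, and the sum of the list was 2.00 to 2.14 FPKM in iEV and 2.70 to 3.64 FPKM in iGLI2. COL1A1 alone had a higher mean in iGLI2 and 7 markers had a lower one, and without COL1A1 the sums overlapped, at 0.598 to 0.787 FPKM in iEV and 0.416 to 0.692 FPKM in iGLI2. Among 7 markers of endothelium, the best known source of EDN1, none averaged 1 FPKM, and their sum was 1.08 to 1.28 FPKM in iEV and 1.37 to 2.45 FPKM in iGLI2. The mean was higher in iGLI2 for 6 of them, with CLDN5 the most abundant at 0.602 and 1.08 FPKM, while VWF was at 0.278 to 0.313 FPKM in iEV and at 0.124 to 0.172 FPKM in iGLI2. The part of COL1A1 and of the endothelial markers in the values of EDNRA and EDN2 was not tested. In bulk RNA, fewer cells with a transcript and less of it per cell cannot be told apart.

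EDNRB encodes the receptor that binds all the endothelins. The gene (ENSG00000136160, minus strand, 7 exons) was at 0.0116 FPKM in iEV replicate 1 and listed at 0 in the other 5 libraries. Its listed locus, chr13:78393072-78549664 in hg19, is also that of the antisense entry EDNRB-AS1, so it need not be the span of EDNRB alone. EDNRB-AS1 was at 0.0629 FPKM in iEV replicate 2 and at 0 elsewhere. The sum of both receptor genes was 0.0288 to 0.0459 FPKM in iEV and 0.156 to 0.219 FPKM in iGLI2. These sums take the listed 0s of EDNRB at face value. The EDNRA values alone were under those of EDN1, EDN2 and ECE1 in every library.

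By level, the order in iEV was ECE1, EDN1, EDN2 and EDNRA, and in iGLI2 it was ECE1, EDN2, EDN1 and EDNRA. EDN2 and EDN1 lay within 1 FPKM of each other in each iGLI2 library, with EDN2 the higher in all 3. EDNRB and EDN3 could not be ordered, since EDN3 was listed at 0 in every library and EDNRB in all but 1. Neighbors in the order, EDN2 and EDN1 included, did not overlap within a group. The spread within a group was small for the ligands and ECE1, with the largest value at most 1.39 times the smallest, and wider for EDNRA, at 1.66 times in iEV and 1.40 times in iGLI2.

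Genes that act before and after the receptors were taken as a list of 36, from peptide processing to receptor desensitization. Of these, 30 could be tested, 3 were higher and 4 lower in iGLI2, and 23 were not called. The share called was 23.3%, close to the 21.9% of all genes, and the median log2 fold change was −0.06 against −0.01 over all genes tested. The list as a whole therefore did not stand apart from other genes by these counts. Its groups hold 4 to 7 tested genes each, too few to be set apart from that share or from each other.

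None of the 4 tested genes of peptide processing and breakdown was called. The most abundant was FURIN, the convertase that trims the precursors, at 54.1 ± 3.11 FPKM in iEV and 65.1 ± 9.20 FPKM in iGLI2 (log2 fold change 0.25, limma adjusted p = 0.182). FURIN was called higher, at log2 fold changes of 0.33 and 0.37, only after rescaling without small RNA genes and without iGLI2 replicate 1. ECE2, a second converting enzyme, averaged 13.3 FPKM in iEV and 13.8 FPKM in iGLI2, and MME, neprilysin, which degrades endothelins, averaged 2.30 and 2.04 FPKM.

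None of the 7 G protein genes was called. GNAI2, an inhibitory alpha subunit and the most abundant, was at 72.8 ± 2.74 FPKM in iEV and 75.7 ± 11.0 FPKM in iGLI2 (limma adjusted p = 0.813). GNA12, another alpha subunit, was at 37.2 ± 1.80 and 45.7 ± 4.18 FPKM (log2 fold change 0.29, limma adjusted p = 0.0617) and was called higher under 4 alternatives, at 0.30 to 0.36.

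In the phospholipase C arm, which releases calcium and activates protein kinase C, 2 of 7 tested genes were higher and 2 lower. Over all genes tested, 21.9% were called. PLCB2, a phospholipase C beta isoform, was at 0.848, 1.14 and 1.14 FPKM in iEV and at 2.72, 4.96 and 4.80 FPKM in iGLI2 (log2 fold change 1.31, SE 0.20, limma adjusted p = 0.00775). PRKCA, protein kinase C alpha, was at 11.7, 11.7 and 11.9 FPKM in iEV and at 17.9, 15.7 and 15.7 FPKM in iGLI2 (log2 fold change 0.45, limma adjusted p = 0.00786). Related isoforms moved the other way. PLCB3 went from 15.7 ± 0.710 to 12.4 ± 1.01 FPKM (log2 fold change −0.32, limma adjusted p = 0.0331). PRKCE, protein kinase C epsilon, went from 3.10 ± 0.548 to 1.80 ± 0.376 FPKM (log2 fold change −0.55, limma adjusted p = 0.0470). ITPR3, an inositol trisphosphate receptor and the most abundant gene of the arm, was at 28.6 ± 1.22 and 33.5 ± 6.45 FPKM and was not called (limma adjusted p = 0.378).

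Among 6 tested genes of receptor desensitization, 1 was higher and 2 were lower, beside 21.9% called over all genes tested. GRK5, a membrane-bound G protein-coupled receptor kinase, was at 3.80, 5.10 and 4.94 FPKM in iEV and at 10.8, 13.6 and 13.6 FPKM in iGLI2 (log2 fold change 1.29, SE 0.13, limma adjusted p = 0.00201). ADRBK1, which encodes the kinase GRK2 and was the most abundant of the group, went from 137 ± 5.57 to 99.2 ± 12.4 FPKM (log2 fold change −0.47, limma adjusted p = 0.0261). ARRB1, beta-arrestin 1, which uncouples phosphorylated receptors, went from 12.6 ± 0.00790 to 10.4 ± 0.663 FPKM (log2 fold change −0.25, limma adjusted p = 0.0346). GRK5 and ADRBK1 thus changed in opposite directions, with ADRBK1 still well above GRK5 in level. The calls of PLCB3, PRKCE, ADRBK1 and ARRB1 were each lost when some of the libraries were left out, with limma adjusted p up to 0.126, 0.156, 0.102 and 0.132. Those of PLCB3, PRKCE and ARRB1 were also lost under other settings, PLCB3 with the number of the sample code as a term (limma adjusted p = 0.0572). The calls of PLCB2, PRKCA and GRK5 held each time.

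**Figure D4:**
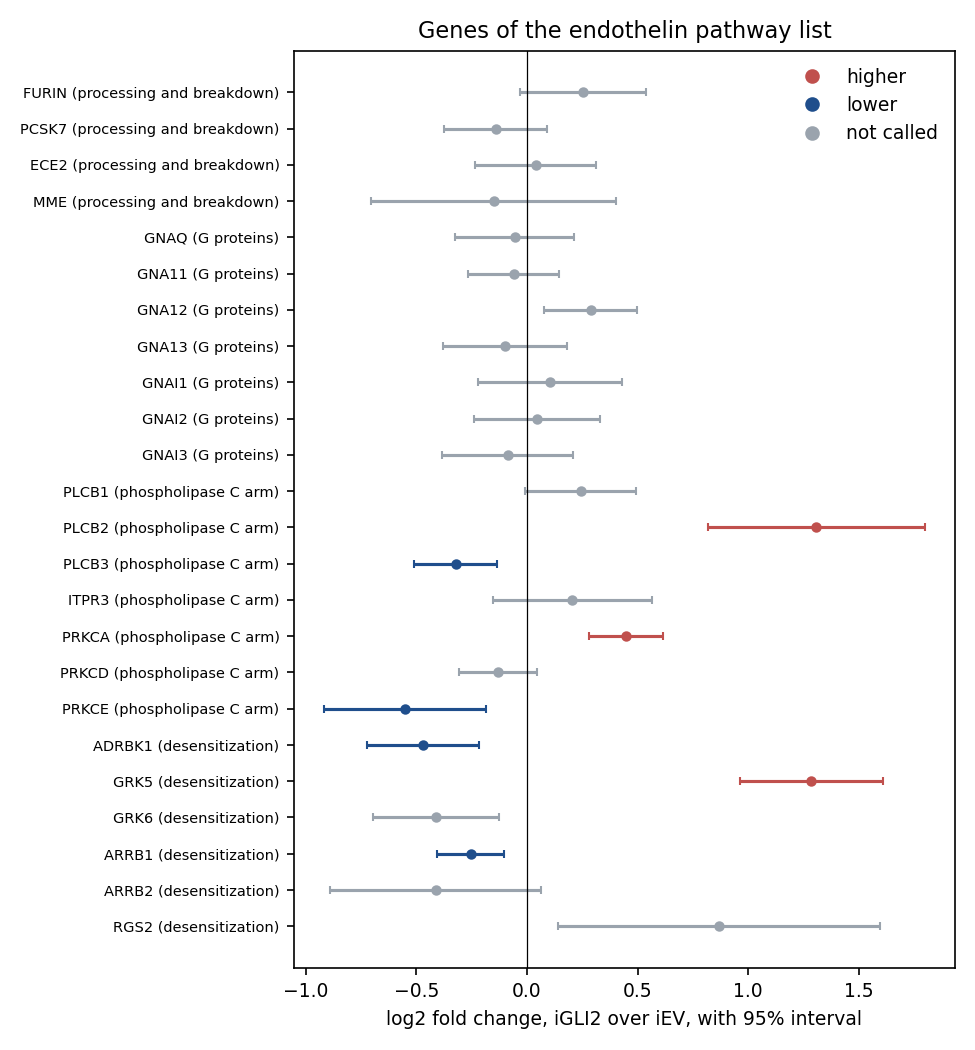
Log2 fold changes of iGLI2 over iEV with 95% intervals for 24 tested genes in 4 groups of the endothelin pathway list. Red marks the 3 genes called higher, blue the 4 called lower and grey the 17 not called, and the intervals are not adjusted for the number of genes.

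The genes whose values across the 6 libraries lay closest to those of EDN2 were TRIB2, a pseudokinase gene, TTC9, a tetratricopeptide repeat gene, and SDC3, a syndecan gene. Likeness was the mean absolute difference of log2(FPKM + 1) after centering each gene on its mean, among 8848 genes averaging at least 5 FPKM. It was 0.0335 for TRIB2, 0.0619 for TTC9 and 0.0765 for SDC3, against a median of 1.12 over these genes. TRIB2 averaged 11.4 FPKM in iEV and 58.2 FPKM in iGLI2, and EDN2 averaged 0.370 and 5.32 FPKM. The likeness therefore lies in the step between the groups on log2(FPKM + 1) and in the small spread within them. It does not extend to the level or to the ratio of means, since that scale understates the change of a gene as low as EDN2. All of these genes share the libraries, and a step between the groups sets most of the measure.

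**Figure D5:**
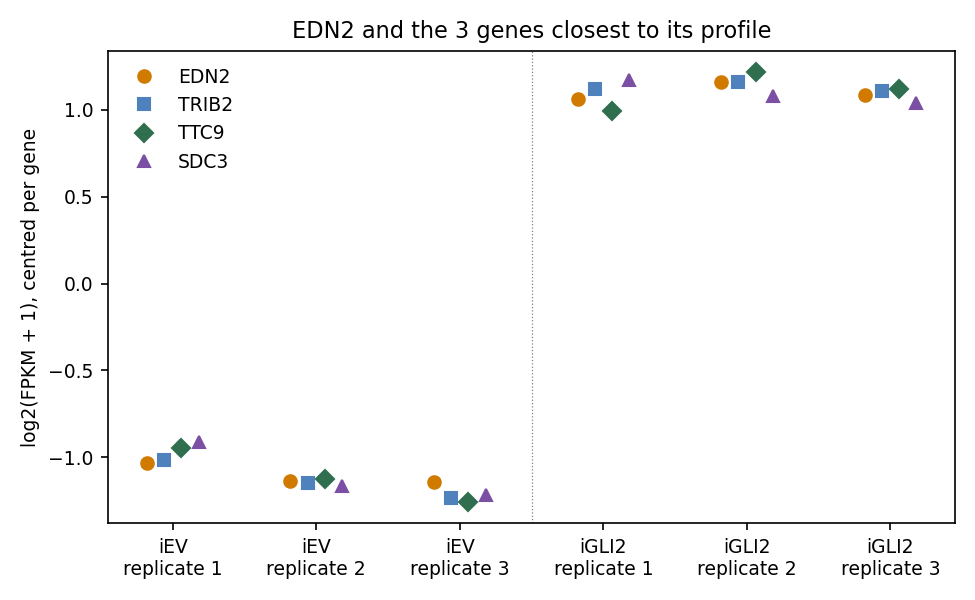
Log2(FPKM + 1) of EDN2, TRIB2, TTC9 and SDC3 in each library, each gene centered on its own mean over the 6 libraries. All lie about 1 below their mean in the iEV libraries and about 1 above it in the iGLI2 libraries.

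EDN1 and ECE1 had no such step, and their nearest genes were matched on the spread between libraries. For EDN1 they were RANBP2, a nuclear pore gene (0.0225), ZC3H8 (0.0362) and WDR92 (0.0366), with a median of 0.172 over all genes compared. For ECE1 they were MCM3, a subunit of the replicative helicase (0.0175), MRGBP (0.0180) and CLK3, a splicing kinase (0.0188), with a median of 0.170. MCM3 was at 63.2 and 54.0 FPKM in replicate 1 of iEV and iGLI2 and at 69.1 FPKM or more in the other libraries, the same low replicate 1 that ECE1 had.

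The genes next to the 6 loci were read to see whether a neighborhood moved with its endothelin gene. Of 12 flanking genes, 8 could be tested and none was called by limma at an adjusted p under 0.05. In the main fit 21.9% of genes were called, and 8 genes are too few to be set apart from that share. The unadjusted limma p was under 0.05 for 2 flanking genes, HIVEP3 beside EDN2 and EIF4G3 beside ECE1. HIVEP3, a zinc finger gene 21681 bases from the EDN2 locus on its upstream side, was at 6.03, 4.82 and 4.99 FPKM in iEV and at 6.43, 6.82 and 6.71 FPKM in iGLI2. The groups did not overlap, as in 42% of the genes tested. The log2 fold change was 0.29 (SE 0.088, limma adjusted p = 0.0645) against 2.21 for EDN2. On the other side, FOXO6 averaged 0.857 FPKM in iEV and 0.606 FPKM in iGLI2 and was not tested.

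EIF4G3, a translation factor gene, averaged 8.34 ± 1.28 FPKM in iEV and 12.4 ± 2.92 FPKM in iGLI2 (log2 fold change 0.50, limma adjusted p = 0.120). The remaining neighbors tested were HIVEP1 beside EDN1, PHACTR3 beside EDN3, NBPF3 beside ECE1, TMEM184C beside EDNRA, and SLAIN1 and POU4F1 beside EDNRB, with log2 fold changes from −0.52 for PHACTR3 to 0.13 for SLAIN1. PHACTR1 was under the minimum level, and ZNF831 and TTC29 were listed at 0 throughout. None was called under upper quartile scaling or quantile normalization either, but HIVEP3 and EIF4G3 were called after rescaling without small RNA genes, with adjusted p of 0.0397 and 0.0378. HIVEP3 and PHACTR3 were also called without iEV replicate 1, and EIF4G3 without iGLI2 replicate 1, at log2 fold changes of 0.37, −0.77 and 0.70.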

How the data were processed

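RNA-seq libraries of YAPC cells after 6 days in Dox were compared, 3 of iEV and 3 of iGLI2. Per the study's methods, the authors used Trimmomatic for trimming, tophat2 for alignment against hg19 and cuffdiff (2.1.1 in the submitters' processing notes). The deposited values were read as FPKM from their form, since the header names no unit. The annotation, scaling and depth are not given in the sources used here, so no counting error is stated.

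Entries off the primary chromosomes (1252) and lower rows of a repeated name (330) were left out, which left 25442 genes. Those with a mean of at least 1 FPKM were tested with limma 3.58.1 (R 4.3.3) on log2(FPKM + 1), two-sided, with group as the single covariate, a variance trend on intensity and Benjamini-Hochberg adjustment over the 12493 genes tested. An exact permutation test of 3 against 3 libraries cannot go below p = 0.1. The fit was tested on simulated data. Alternatives were a pseudocount of 0.1, no minimum, a minimum of 5 FPKM, upper quartile scaling, quantile normalization, rescaling without small RNA genes, the replicate number as a block, no trend, and each library left out. Gene identifiers, exons and starts came from GENCODE lifted to GRCh37, and Python 3.11.15 was used for tables, sequences and plots. The hg19 loci given for the genes are those listed in the expression table, where entries that overlap can share an interval.

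The members and lists were chosen with earlier results of these data known. Named genes are the 6 members, called pathway genes with the most abundant of each group (5 groups, of which the genes of 1 are not reported here), the 3 nearest genes by profile for each member tested, flanking genes and GLI2. ECE2, MME, GNA12 and the cell type markers named were picked after their values were seen.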

Additional observations from a re-analysis of the deposited data

How the results depend on the processing

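Over 14 alternatives EDN2 was called higher each time it was tested, with log2 fold changes of 2.08 to 3.54 and limma adjusted p of 1.64e-05 to 0.00209, and EDN1 and ECE1 were called in none, though EDN1 went to −0.0475 without iEV replicate 1 and ECE1 to 0.0146 without iGLI2 replicate 1. With each library left out, EDN1 ranged from −0.0475 to 0.15, ECE1 from −0.18 to 0.0146 and EDN2 from 2.18 to 2.24. The number of endothelin genes called was 1, but 0 with a minimum mean of 5 FPKM, which EDN2 does not reach, and 2 without a minimum, where EDNRA joined. The 7 pathway calls became 3 to 10 with a library left out, lowest without iEV replicate 2, iEV replicate 3 or iGLI2 replicate 2, and the 0 flanking calls became 0 to 2. Flanking calls were 2 after rescaling without small RNA genes. The share of calls that were higher was 46% and became 59.4% after that rescaling.

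The labels do not say what a replicate number marks, and deviations of same-numbered libraries correlated at 0.204, 0.092 and 0.028. With the replicate block, 3928 genes were called in place of 2742, with 1 endothelin gene (EDN2, limma adjusted p = 0.00209), 10 pathway genes and 2 flanking genes (EIF4G3 and PHACTR3). The titles also carry codes with a number, 1 for replicates 1 and 2 and 2 for replicate 3 of both groups, whose meaning the labels do not give. With that number as a term, an alternative chosen after seeing the data, 2084 genes were called, with EDN2 (limma adjusted p = 0.00104), 4 pathway genes and 0 flanking genes. With a library left out, calls over all genes ran from 1222 without iEV replicate 2 to 3744 without iGLI2 replicate 1. Depth is unknown, so low values such as those of EDNRA carry no counting interval.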
